A study of Mus musculus with 4 samples.

Results

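The 6 genes described here are Clec10a, Mgl2, Mrc1, Retnla, Chil3 and Cdh1, a set named for induction by interleukin-4 (IL-4) in myeloid cells. They were taken by name, with earlier results of these data known, and all 6 were measured, out of 18194 genes read on the arrays. Each had 1 probe set that was annotated to it alone, and 1 further probe set was shared by Chil3 and its neighbour Chil4. The RNA of dendritic cells, antigen-presenting cells that were grown from C57BL/6 mouse bone marrow, was hybridised to 4 Affymetrix arrays. Of these arrays, 2 came from cells given SAHA (500 nm as the labels write it) and 2 from cells given diluent (control), each for 12 hours. Before that, cells of both groups had grown for 7 days with GM-CSF at 10 ng/ml and IL-4 at 10 ng/ml and had been selected for CD11c to a stated purity of 95%. Marrow of at least 3 mice went into each experiment, so the RNA of an array may be that of pooled animals. SAHA (vorinostat) inhibits histone deacetylases. The comparison asks how SAHA altered these genes in cells already raised in IL-4, and it has no cells raised without IL-4.

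IL-4 binds a receptor that contains the IL-4 receptor alpha chain, which activates the transcription factor STAT6. In mouse macrophages STAT6 turns on a programme called alternative activation, known from helminth infection, allergy and tissue repair. Its usual markers are lectin receptors that take up glycoproteins, the secreted proteins RELM-alpha (Retnla) and Ym1 (Chil3), and the adhesion protein E-cadherin (Cdh1), and several of them are also used to describe marrow-derived dendritic cells.

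The promoters of Retnla and Chil3 are shown because each held a STAT-type palindrome, and that of Mgl2 because it lies beside Clec10a on chromosome 11 and had neither palindrome. The sequences run from 250 bases before to 50 bases after the gene start and are from RefSeq, where 4 of the 6 genes were matched. Capitals mark the palindrome.
Retnla promoter (GRCm38.p6, chr16:48842359-48842658, plus strand): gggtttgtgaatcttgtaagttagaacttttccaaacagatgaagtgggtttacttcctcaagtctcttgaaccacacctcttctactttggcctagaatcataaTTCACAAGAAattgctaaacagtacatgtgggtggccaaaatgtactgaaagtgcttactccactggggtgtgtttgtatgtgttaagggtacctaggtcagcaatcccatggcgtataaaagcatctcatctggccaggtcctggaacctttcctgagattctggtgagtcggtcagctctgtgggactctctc
Chil3 promoter (GRCm38.p6, chr3:106167515-106167814, minus strand): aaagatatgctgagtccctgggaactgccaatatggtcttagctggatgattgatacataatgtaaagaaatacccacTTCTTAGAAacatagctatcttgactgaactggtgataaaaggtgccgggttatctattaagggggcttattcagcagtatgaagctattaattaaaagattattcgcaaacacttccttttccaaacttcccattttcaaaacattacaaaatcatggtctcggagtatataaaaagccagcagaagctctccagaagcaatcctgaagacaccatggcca
Mgl2 promoter (GRCm38.p6, chr11:70130107-70130406, plus strand): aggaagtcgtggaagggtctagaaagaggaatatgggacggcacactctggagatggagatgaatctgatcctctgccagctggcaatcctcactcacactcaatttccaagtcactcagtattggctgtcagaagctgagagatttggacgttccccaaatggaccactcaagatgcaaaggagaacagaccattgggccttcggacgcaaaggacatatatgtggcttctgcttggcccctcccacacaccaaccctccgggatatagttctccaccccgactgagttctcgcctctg
The Retnla match, TTCACAAGAA, begins at base -145 from the gene start and has TTC and GAA with 4 bases between them, the spacing preferred by STAT6. The Chil3 match, TTCTTAGAA, begins at base -172 and has 3 bases between them. These 2 motifs read the same on either strand, so a search of 1 strand covers both, and they did not overlap in either promoter. Among 32851 promoters of this length 6.95% held the first and 8.30% the second. The Mrc1 promoter held neither, and Clec10a and Cdh1 were not matched. A match describes letters in this window and not binding.

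Of the 6 genes, Clec10a rose with SAHA and none fell (limma, Benjamini-Hochberg adjusted p under 0.05). Clec10a encodes MGL1, a C-type lectin that binds galactose-type sugars, and it was 3.65-fold higher in SAHA-treated cells. Cdh1 was 2.10-fold and Mgl2 1.30-fold higher without passing the threshold, and Mrc1, Retnla and Chil3 differed by at most 1.21-fold. That is 1 gene of 6 called higher, where 1.52% of all genes were called higher and 0.709% lower, 2.23% in all, and since the set was named with such results known, nothing about the set is read from this. The median log2 change of the 6 was 0.25, against -0.05 for all genes. In each of the 6 genes the SAHA and control values did not overlap, as was so for 50.7% of all genes. For 1 gene, 2 arrays against 2 allow no exact two-sided permutation p below 0.333. The labels call the replicates biological but do not say whether they came from separate marrow. A p-value here therefore reflects only how far these arrays varied, and their small number limits the precision.

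**Figure D1:**
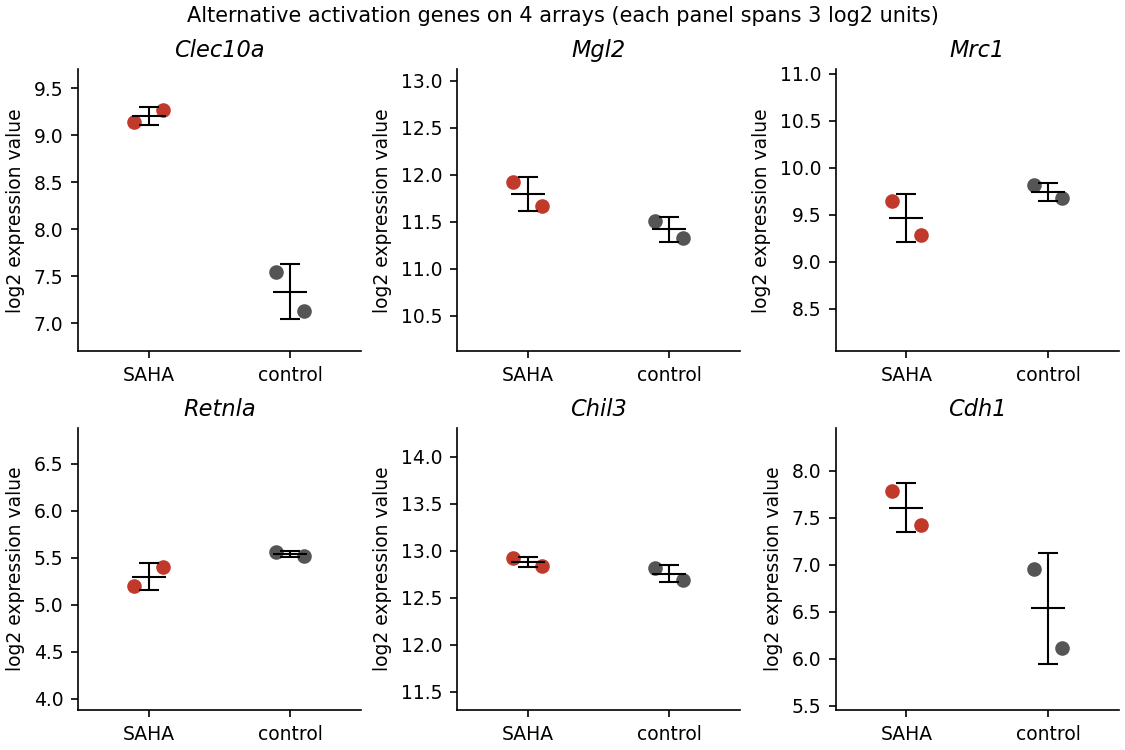
Log2 expression value (y axis, each panel spanning the same 3 log2 units) of each gene in SAHA-treated and control cells. Points are arrays, and the bar with whiskers is the mean with its SD (n = 2). Clec10a lies at 9.14 and 9.27 with SAHA and at 7.54 and 7.13 in control, while the Chil3 values lie within 0.23 of each other.

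Among the 3 receptors Clec10a rose, and Mgl2 and Mrc1 did not pass the test. Clec10a read 9.14 and 9.27 log2 units in SAHA replicates 1 and 2, against 7.54 and 7.13 in control replicates 1 and 2. Both SAHA values were at least 1.595 above either control value. The log2 change was 1.87 ± 0.19 (SE, 95% interval 1.42 to 2.31, limma adjusted p = 0.0140), a size larger than that of 99.7% of genes. The call was lost without SAHA replicate 1 (adjusted p = 0.0694) or SAHA replicate 2 (0.0539), with changes of 1.93 and 1.80, and kept without either control array. It was also lost when values under the 20th percentile were raised to it (0.171) and in a linear model without moderation (0.349), with the change unmoved at 1.87. In bulk RNA, more cells expressing a gene and more RNA per cell cannot be told apart.

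Mgl2 encodes MGL2, the close relative of MGL1 and the marker CD301b of some dermal dendritic cells. It read 11.92 and 11.67 in SAHA replicates 1 and 2, against 11.51 and 11.33 in control replicates 1 and 2. All 4 values were high on the scale, with SAHA slightly above control. The log2 change was 0.37 ± 0.14 (SE, 95% interval 0.03 to 0.72, limma adjusted p = 0.241), with 0.25 without SAHA replicate 1. The change of Clec10a exceeded that of Mgl2 by 1.49 log2 units, and both SAHA arrays lay apart from both control arrays in this difference, where an exact permutation test gives its smallest value, p = 0.333. How far the probes of each relative also read the other was not tested.

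Mrc1 encodes the mannose receptor CD206, which takes up mannose-rich glycoproteins and pathogens. It read 9.65 and 9.28 in SAHA replicates 1 and 2, against 9.81 and 9.67 in control replicates 1 and 2. The SAHA values were lower, with SAHA replicate 1 just under control replicate 2, and the SAHA arrays lay 0.37 apart, further than the group means. The log2 change was -0.28 ± 0.17 (SE, 95% interval -0.69 to 0.13, limma adjusted p = 0.443), and it was -0.10 without SAHA replicate 2 and -0.46 without SAHA replicate 1.

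**Figure D2:**
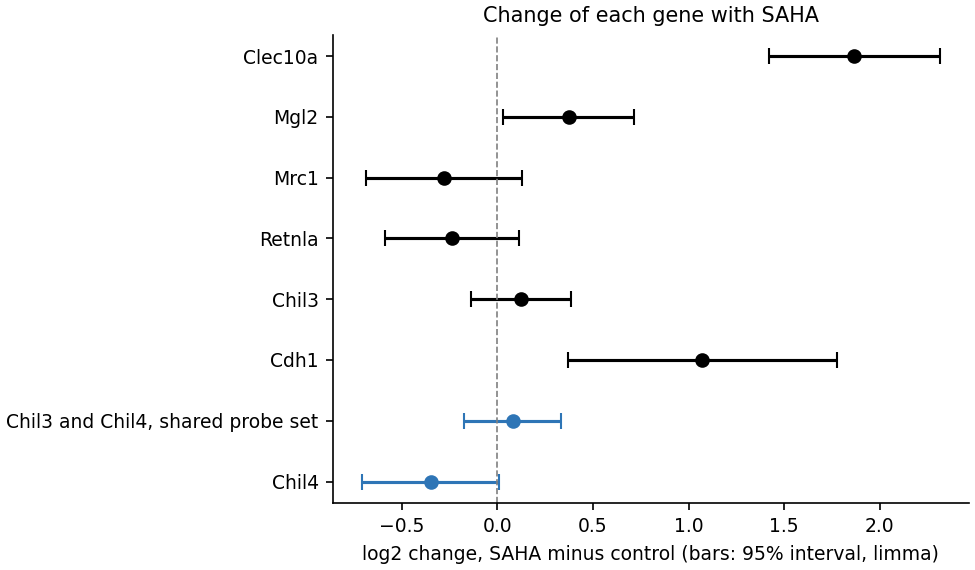
Log2 change, SAHA minus control (x axis), with its 95% interval from limma. Black points are the 6 genes, and blue points are the probe set shared by Chil3 and Chil4 and that of Chil4 alone, taken from a fit over all probe sets. The interval lies wholly above 0 for Clec10a, Mgl2 and Cdh1, of which Clec10a alone passed after adjustment.

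Neither gene of a secreted protein passed the test. Retnla encodes RELM-alpha, a resistin-like protein induced by IL-4 in macrophages and epithelium. It read 5.20 and 5.40 in SAHA replicates 1 and 2, against 5.56 and 5.51 in control replicates 1 and 2. These values lay at the 37.9th to 41.2nd percentile of the genes of their arrays, so this usual marker of IL-4 exposure was below the middle of the scale in both groups. The log2 change was -0.24 ± 0.15 (SE, 95% interval -0.59 to 0.12, limma adjusted p = 0.449), with -0.14 without SAHA replicate 1.

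Chil3 encodes Ym1, a secreted chitinase-like protein that binds sugars but does not cut chitin, made by alternatively activated macrophages and also by neutrophils. It read 12.92 and 12.84 in SAHA replicates 1 and 2, against 12.82 and 12.69 in control replicates 1 and 2. All values were at or above the 98.4th percentile of their arrays. The log2 change was 0.12 ± 0.11 (SE, 95% interval -0.14 to 0.39, limma adjusted p = 0.585), and leaving out 1 array gave 0.06 (without control replicate 2) to 0.19 (without control replicate 1). The probe set shared with Chil4, which has the higher mean of the pair, read 13.16 and 12.98 in SAHA and 13.03 and 12.95 in control replicates 1 and 2, with a change of 0.08 (adjusted p = 0.759 over all probe sets). The probe set of Chil4 alone, the gene of Ym2, read 4.50 and 4.43 in SAHA and 4.67 and 4.96 in control replicates 1 and 2.

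Neutrophil markers were read because neutrophils also make Ym1. Of 7 measured markers (S100a8, S100a9, Ngp, Camp, Ltf, Elane and Mpo), 5 fell and none rose (limma), with a median log2 change of -1.13. Among all genes 0.709% fell by the same test. The count was 0 when values under the 20th percentile were raised to it, and in a linear model without moderation. Without SAHA replicate 1 the count was 0 (median -1.32), without SAHA replicate 2 it was 2, and without control replicates 1 and 2 in turn it was 4 and 3. Their summed level was 10.49 log2 units in each SAHA array, against 11.60 and 11.52 in control replicates 1 and 2. Ngp, a neutrophil granule protein, read 6.28 and 6.22 in SAHA and 8.20 and 8.05 in control replicates 1 and 2. Mpo was under the 25th percentile of genes on all 4 arrays, and Ly6g was not analysed here. Their part in the Chil3 value was not tested.

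**Figure D3:**
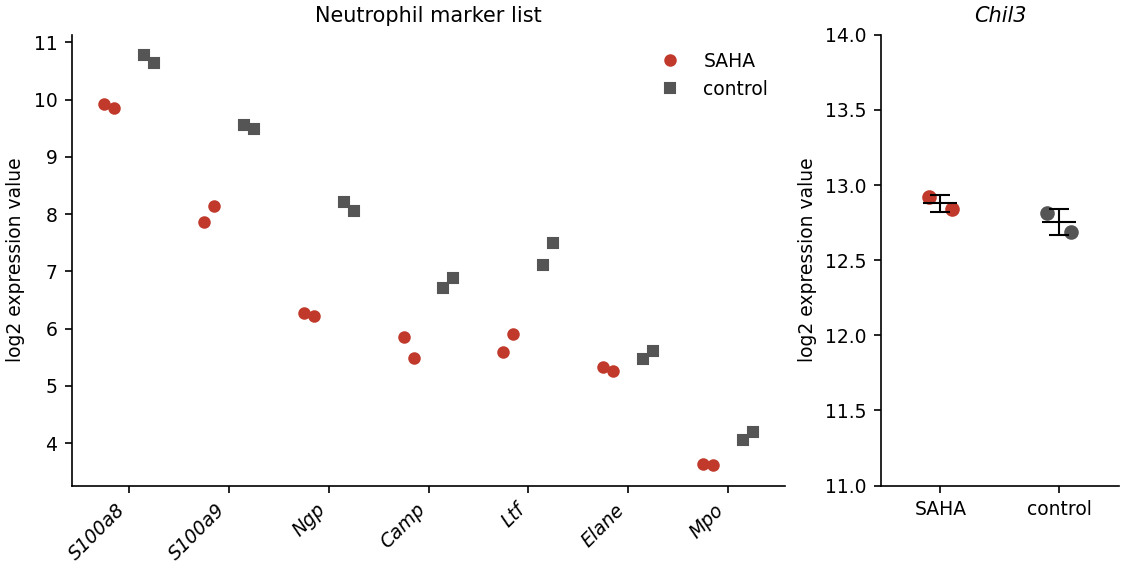
Log2 expression value (y axis) of the 7 neutrophil markers (left, SAHA circles and control squares, 1 point an array) and of Chil3 (right, with mean and SD, n = 2). In every marker both SAHA points lie below both control points, and in 50.7% of all genes the groups did not overlap. Mpo is under the 25th percentile of genes on all 4 arrays. The Chil3 means are 12.88 with SAHA and 12.75 in control.

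Cdh1 encodes E-cadherin, which joins epithelial cells and Langerhans cells and is induced by IL-4 in mouse macrophages. It read 7.79 and 7.43 in SAHA replicates 1 and 2, against 6.95 and 6.12 in control replicates 1 and 2. Both SAHA values were above both control values, and the control arrays differed by 0.83. The log2 change was 1.07 ± 0.29 (SE, 95% interval 0.37 to 1.78, limma adjusted p = 0.131), a size larger than that of 98.0% of genes. Without control replicate 1 the change was 1.49 and passed (adjusted p = 0.0212), and without control replicate 2 it was 0.66. The Langerhans cell markers Cd207 and Epcam had changes of -0.01 and -0.12.

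The label of the cells was set against marker lists. Dendritic cell markers had a summed level between 16.01 and 16.07 log2 units on the 4 arrays, which does not give the level of each. None of 7 passed in limma in either direction (1 at an unadjusted p under 0.05, median change -0.03). Itgax, the CD11c gene, was high, at 13.16 and 12.46 in SAHA and 13.40 and 12.44 in control replicates 1 and 2. None of 8 macrophage markers passed (1 unadjusted, median -0.08), although Adgre1 and Csf1r were also high, with Adgre1, which encodes F4/80, between 11.88 and 11.99 on the 4 arrays. None passed among 3 eosinophil, 7 mast cell and basophil, 3 T cell, 3 B cell, 2 NK cell and 2 erythroid markers, 20 in all (3 unadjusted). Prg2, the eosinophil major basic protein, had the lowest change among these at -0.99.

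The genes around IL-4 signalling were read from 6 lists with 93 genes, of which 88 were measured. Of the 88, 2 rose and 1 fell, or 3.41%, beside the 2.23% of all genes, and their median change was -0.11. In the receptor and signalling list none of 15 passed in limma (3 at an unadjusted p under 0.05, median -0.03). Stat6, the factor that carries the IL-4 signal, read 11.15 and 11.11 in SAHA, against 11.63 and 11.46 in control replicates 1 and 2, a change of -0.42 (limma adjusted p = 0.162), and a second probe set gave -0.50. Il4ra, the receptor chain that binds IL-4, had a change of 0.11 (0.814), with further probe sets at 0.00 and -0.16. Socs1, a feedback inhibitor, had a change of -0.66 (0.372), which ran from -0.17 without control replicate 2 to -1.16 without control replicate 1. Il4 itself was under the 25th percentile of genes on all 4 arrays, with a measured change of 0.41 (0.113). Putting that percentile in place of all 4 values leaves only the difference between the percentiles of the arrays (-0.10). It therefore gives no change of Il4 itself.

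**Figure D4:**
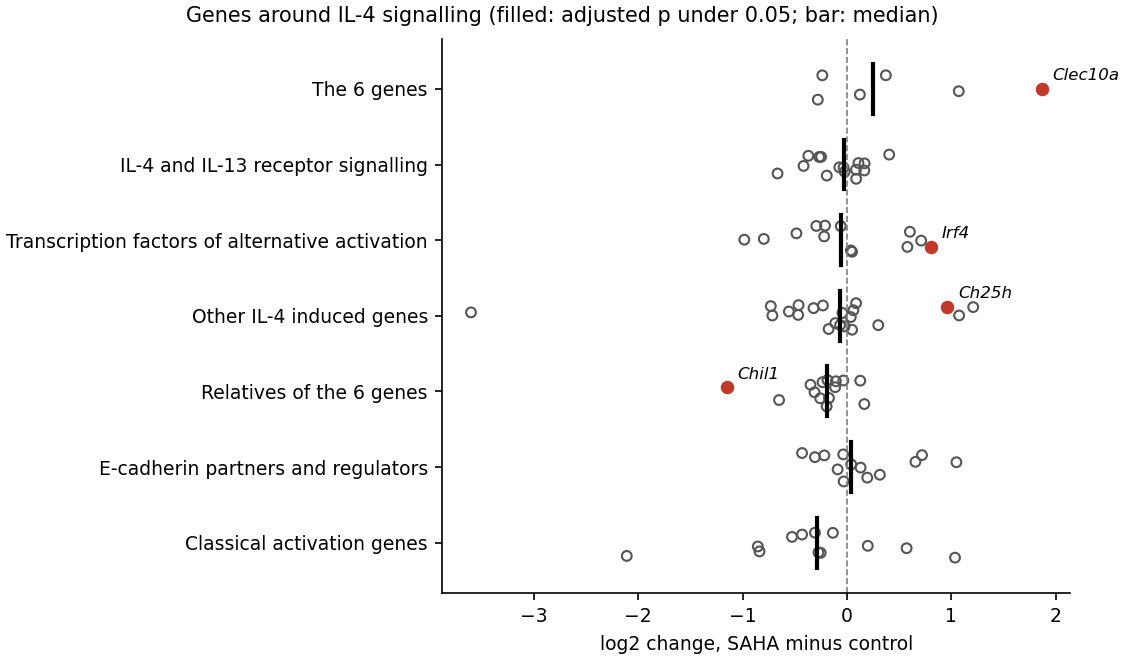
Log2 change, SAHA minus control (x axis), of each measured gene of the 6 genes and of the 6 lists around IL-4 signalling (rows). Filled points passed at an adjusted p under 0.05 over all genes and carry their names, open points did not, and the vertical bar is the median of the row. The medians of the rows lie between -0.29 and 0.25, with Arg1 far to the left at -3.60 but not past the threshold.

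Among 13 transcription factors and chromatin regulators of alternative activation 1 rose and none fell (median -0.06). Irf4, a factor of IL-4 responses in macrophages and dendritic cells, read 10.48 and 10.42 in SAHA, against 9.73 and 9.55 in control replicates 1 and 2, a 1.75-fold rise (log2 change 0.81 ± 0.14, SE, limma adjusted p = 0.0431). A second Irf4 probe set gave 0.26, with overlapping groups, and the mean of both, 0.53, missed the threshold (0.215). The call was also lost without SAHA replicate 1 (0.279), SAHA replicate 2 (0.154) or control replicate 2 (0.105), and in 4 of 10 other settings, the averaged one included (0.0531 to 0.349). Pparg, a lipid-sensing receptor of alternatively activated macrophages, had a change of -0.21 (0.528).

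Of 21 other IL-4 induced genes 1 rose and none fell (median -0.07). Ch25h, which makes 25-hydroxycholesterol, read 9.29 and 9.61 in SAHA, against 8.41 and 8.56 in control replicates 1 and 2, a 1.95-fold rise (limma adjusted p = 0.0472) that missed the threshold whichever single array was left out (0.0616 to 0.194) and in 6 of 10 other settings (0.0540 to 0.381). Arg1, the arginase that marks alternative activation in mice, read 3.74 and 5.74 in SAHA, against 7.10 and 9.58 in control replicates 1 and 2. Its change of -3.60 ± 0.90 (SE) was the lowest of all genes, yet the SAHA arrays lay 2.00 apart and the control arrays 2.48, and it did not pass (limma adjusted p = 0.110), though it did without control replicate 1 (-4.84, 0.0159). With SAHA replicate 1, the 1 low value, raised to the 25th percentile of its array the change was -3.32. The STAT6-driven chemokines did not pass either, with Ccl22 at 0.05 and Ccl17 at 0.09, and Ccl17 differed more between replicates, at 12.56 and 11.24 in SAHA and 12.70 and 10.92 in control replicates 1 and 2, so that its change ran from -0.80 to 0.98 with 1 array left out.

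Among 14 relatives of the 6 genes 1 fell and none rose (median -0.19). Chil1, a chitinase-like protein related to Ym1, read 10.51 and 10.91 in SAHA, against 11.63 and 12.08 in control replicates 1 and 2, so it was 2.22-fold lower (log2 change -1.15 ± 0.20, SE, limma adjusted p = 0.0475), while Chil3 had a change of 0.12 and Chil4 of -0.35 (0.273). The Chil1 call was lost without SAHA replicate 1 (0.232), SAHA replicate 2 (0.0787) or control replicate 2 (0.0794), and in 7 of 10 other settings (0.0525 to 0.432). None of 13 partners and regulators of E-cadherin passed (3 unadjusted, median 0.04). The largest changes there were those of Itgb7, an integrin chain that pairs with the E-cadherin receptor CD103, at 1.05 (0.0831), of Jup, a catenin, at 0.72 (0.202), and of Zeb2, a repressor of Cdh1, at 0.66 (0.147), whose other probe sets ran between -0.16 and 0.85. Without SAHA replicate 1 the change of Jup was 0.36, and without SAHA replicate 2 that of Zeb2 was 0.40. None of 12 genes of classical activation, the programme usually set against the IL-4 one, passed (3 unadjusted, median -0.29), with Il6 at -2.11 (0.232), Cd86 at 1.04 (0.248) and Gpr18 at -0.85 (0.348). With 1 array left out Il6 ran from -1.07 to -3.15 (passing without control replicate 1, 0.0417), Cd86 from 0.42 (without control replicate 1) to 1.65 (passing without control replicate 2, 0.0265), and Gpr18 from -0.16 (without SAHA replicate 1) to -1.55 (without SAHA replicate 2).

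The genes whose 4 array values ran most like those of Clec10a were Rragd, a small GTPase of amino acid sensing, Il18rap, a chain of the IL-18 receptor, and Kdm5b, a histone demethylase. Likeness was the distance between array values after each gene's mean was taken off, over 4 arrays, and came to 0.18, 0.19 and 0.20 log2 units. Il18rap read 8.27 and 8.58 in SAHA, against 6.62 and 6.40 in control replicates 1 and 2, and its second probe set gave a change of 1.78 beside 1.91. The further probe sets of Rragd were low on all arrays and gave -0.06 and -0.40. Those of Kdm5b gave 0.72, 0.78 and 0.18, the last of them from a probe set that was low on all arrays.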

How the data were processed

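The authors deposited 1 table of normalized values, whose log2 scale was inferred from their range of 2.59 to 14.97. R 2.7 is named per the submitters' processing notes, and the summarisation and normalization are not given in the sources used here. Array medians lay within 0.0118, so the values were kept. Of 45101 probe sets 34958 had 1 gene symbol, 932 several and 9211 none in the platform annotation, and symbols were updated through a RefSeq table for 34754. Among probe sets with 1 symbol, that of the highest mean stood for its gene. SAHA was compared with control in limma 3.58.1 (R 4.3.3, eBayes with an intensity trend, two-sided, Benjamini-Hochberg over all genes). On simulated data the fit called 51.4% of 2-fold changes. Those data took the fit's own spread model and independent arrays, so they cannot test that model. Arrays have no read depth. Percentiles are over genes, 25 marking low values. The members and lists were chosen with earlier results of these data known. Named besides the 6 genes were list members past the threshold, or the 3 with the largest change where none passed, 8 genes fixed by name and the 3 genes most like the member that changed most. Alternatives changed the spread model, normalization, low values, probe sets, replicate term and arrays used.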

Additional observations from a re-analysis of the deposited data

How the results depend on the processing

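The directions of all 6 genes were the same under every alternative run. Leaving out 1 array could not reverse them, since their groups did not overlap, and most other settings left the change as it was. Clec10a kept its call except with the floor at the 20th percentile (1.87, adjusted p = 0.171), in the ordinary linear model (1.87, 0.349), and without either SAHA array, its change running from 1.66 to 2.07 with 1 array left out. Cdh1 ran from 0.66 to 1.49 with 1 array left out and passed without control replicate 1. With replicate number as a block, Cdh1 (1.07, adjusted p = 0.000289) and Mgl2 (0.37, 0.00632) passed too, and 3 of the 6 genes, 31 genes of the lists (Arg1, Il6, Cd86 and Stat6 among them) and 3616 of all genes were called, against 1, 3 and 405 without it. Same-numbered arrays deviated together (r = 0.57 over 18194 genes, which are no independent replicates), but the labels do not link a number to a culture and there are only 2 pairs, so the block was not used for calls. With 1 array left out the counts ran from 0 to 2 of the 6 genes, 0 to 6 list genes and 31 to 529 of all genes, the lowest without SAHA replicate 1 and, for the 6 genes and the list genes, also without SAHA replicate 2, and the lone array of a group is then assumed to vary like the other group. In limma after the floor the counts were 0 for the 6 genes, the list genes and all genes (1, 19 and 3034 at an unadjusted p under 0.05), and in the ordinary model, which takes each gene's spread from its own arrays, also 0 (1, 9 and 2210). Among genes above the median level 226 of all genes and 0 list genes passed in limma (20 unadjusted), with probe sets averaged 0 list genes (25 unadjusted), and 1 after 32 was added on the linear scale. Apart from the construction named, the cause was not tested. Retnla has no value among genes above the median level. The number of arrays and values low on the scale limit what could be called.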

Other observations

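The measured genes beside each of the 6 on its chromosome, 3 on either side in the RefSeq gene order, were read as well, a choice made after the values of the 6 were seen. These were 30 genes besides the 6 themselves, and 7 of them were under the 25th percentile of genes on all 4 arrays. Of the 30, 1 passed, beside 2.23% of all genes, and nothing about these places is read from that count. The gene was Dennd2d, which encodes a DENN domain protein of RAB regulation and lies near Chil3 on chromosome 3. It read 7.34 and 7.19 in SAHA, against 6.18 and 6.25 in control replicates 1 and 2 (log2 change 1.05, limma adjusted p = 0.0330). Its second probe set gave 0.21, and the mean of both, 0.63, missed the threshold (limma adjusted p = 0.0722). The call was also lost in limma after the floor (0.174) and in the ordinary linear model (0.335). Without SAHA replicate 1 or SAHA replicate 2 it was lost too, with changes of 0.98 and 1.12. Beside Clec10a and Mgl2 lie Asgr1 and Asgr2, which encode the related asialoglycoprotein receptor of liver. Asgr1 was under the 25th percentile on all arrays, and Asgr2 read 5.16 and 5.93 in SAHA and 5.47 and 5.35 in control replicates 1 and 2, with overlapping groups. On the other side of Clec10a the monocarboxylate transporter genes Slc16a11 and Slc16a13 had changes of -0.14 and -0.21, so no gene beside Clec10a among those measured passed.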
